A study of Mus musculus with 12 samples.

Results

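The genes described here carry the signal of leukaemia inhibitory factor (LIF) through STAT3 in mouse embryonic stem cells (mESCs). They were chosen by name as Lif, Lifr, Il6st, Jak1, Stat3, Socs3, Pim1, Pim3 and Bcl3, which are 9 of the 39017 genes in the deposited gene table. All 9 were among the 17885 genes that passed the filter on low counts. Poly(A) RNA was sequenced from 4 groups of 3 libraries each. J1 is a wild-type line of male mESCs, and J1 serum and J1 2i are its groups. The line labelled 3B3-3l (3B3L in the study) lacks functional endogenous Dnmt3a and Dnmt3b genes and carries Dnmt3b and Dnmt3l transgenes driven by the constitutive CAG promoter. These transgenes keep DNA methylation up in 2i, and 3B3-3l serum and 3B3-3l 2i are the groups of that line. Serum medium was DMEM with fetal calf serum and LIF. 2i medium was serum-free N2B27 with LIF, 1 µM of the MEK inhibitor PD0325901 and 3 µM of the GSK3 inhibitor CHIR99021. LIF was therefore present in every group. The labels give 500 U/ml of LIF in serum and 1000 U/ml in 2i, whereas the study's methods give 1000 U/ml in both, so by the labels the dose of LIF and the medium cannot be told apart. In serum, J1 cells grew on inactivated feeder cells that were depleted before collection, and 3B3-3l cells grew on gelatin, so the line and the surface cannot be told apart in that medium. Each line is a single line, so a difference between lines rests on 1 line of each genotype. The labels call the libraries of a group biological replicates without saying which cultures they came from, and p-values measure the spread between these libraries.

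LIF binds the receptor LIFR, which pairs with gp130, the product of Il6st and the signalling chain shared by the interleukin-6 family of cytokines. Janus kinases bound to the receptor chains, with JAK1 as the main one, then phosphorylate STAT3, which enters the nucleus and switches on target genes. LIF is the cytokine classically used to keep mESCs undifferentiated, and STAT3 is the part of its signal needed for self-renewal. SOCS3 is a target of STAT3 and feeds back on gp130 and JAK1. PIM1 and PIM3 are serine and threonine kinases that favour survival and self-renewal, and BCL3 is an atypical IκB protein that acts as a transcriptional cofactor. All results below are RNA levels, which do not show the phosphorylation of STAT3.

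STAT3 binds palindromic DNA of the form TTCNNNGAA, which reads the same on both strands. This motif was searched in RefSeq promoter windows of GRCm38.p6 (mm10) that run from 250 bases before to 50 bases after each gene start. It was present in 8.3% of all 32851 windows. Of the 9 genes, which had 11 windows, 1 held it, and this was Socs3. Of the 36 genes of a wider pathway list (below) that had a window, 2 held it, namely Cish, which codes for another SOCS protein, and Gab1, which codes for an adaptor of the SHP2 branch. The stretches around these matches are shown because the levels of Socs3, Cish and Gab1 are described below. Capitals mark the motif, and the flanking bases are in lower case, 5′ to 3′ on the strand of the gene.
Socs3, chr11:117969502-117969530, minus strand: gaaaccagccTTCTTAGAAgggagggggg
Cish, chr9:107296654-107296683, plus strand: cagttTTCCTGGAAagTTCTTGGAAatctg
Gab1, chr8:80880473-80880501, minus strand: ccggaggagtTTCAGAGAAagtctgggct
The Socs3 match began 154 bases before the start used for its window, which lies inside the longer span annotated for the gene (given below). The stretch of Cish held a pair of matches, the first at the gene start and the next 11 bases after it. The Gab1 match lay 12 bases before one annotated start and 28 bases after another. A match is a string of letters and says nothing about whether STAT3 bound there, and the lack of a match in the windows of the other 8 genes says nothing about STAT3 at those genes.

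The 12 libraries held 37050652 to 44515395 estimated reads. Levels are given in CPM (counts per library brought to 1 scale with TMM factors), and 3 counts, the limit that a count of 0 allows, correspond to 0.0674 to 0.081 CPM. The genes altered in 3B3-3l were read first as a check of the labels. Dnmt3b stood at 41.0 to 47.2 CPM in J1 2i and at 914 to 936 CPM in 3B3-3l 2i, Dnmt3l at 47.9 to 55.5 and 285 to 294 CPM, and Dnmt3a at 38.9 to 44.5 and 4.0 to 5.07 CPM. In serum Dnmt3b stood at 404 to 427 CPM in J1 and 866 to 927 CPM in 3B3-3l, Dnmt3l at 285 and 448 to 511 CPM, and Dnmt3a at 166 to 167 and 29.4 to 34.3 CPM. Dnmt3a RNA was thus lower in 3B3-3l than in J1 in each medium but was not absent from it, and an RNA level does not show whether the product works. Summed over 6 mESC markers (Pou5f1, Nanog, Sox2, Zfp42, Dppa5a and Utf1), levels were 3596 to 5027 CPM over all libraries. Taken singly, 2 of these 6 were called higher in 2i and 3 lower in J1, beside 66.1% of all genes called. In 3B3-3l 3 were called higher and 2 lower, beside 65.4%. Summed over 12 fibroblast markers, levels were 60.3 to 65.4 CPM in J1 serum, 29.7 to 30.2 in J1 2i, 75.6 to 87.1 in 3B3-3l serum and 17.9 to 18.3 in 3B3-3l 2i. These sums were thus higher in serum than in 2i in both lines, and in serum higher in the line grown without feeder cells. Of the 8 fibroblast markers tested, 7 fell in 2i in each line, and 4 were called higher in 3B3-3l in serum. The exception between media was Pdgfrb, which rose in J1 from 6.31 ± 0.855 to 19.4 ± 0.896 CPM (SD, n = 3) and stood at 7.39 ± 0.935 and 7.33 ± 0.107 CPM in 3B3-3l. In both serum groups 7 of the 12 were under 1 CPM, among them the fibroblast genes Dcn, Lum, Postn, Col3a1 and Twist2. Summed over 6 primitive endoderm markers, levels were 8.08 to 8.53 CPM in J1 serum, 5.72 to 6.40 in J1 2i, 14.6 to 16.2 in 3B3-3l serum and 6.97 to 7.25 in 3B3-3l 2i. In J1, 2 of these 6 (Gata4 and Sox17) were called higher in 2i and 2 lower, beside 33.2% and 32.9% of all genes. In 3B3-3l 5 were called lower in 2i, beside 32.7% of all genes. In serum all 6 were called higher in 3B3-3l than in J1, beside 21.5% of all genes. Both marker sums moved with the medium, though not every marker did, and their part in the results below was not tested. In bulk libraries, fewer cells that use a gene and less RNA of it per cell cannot be told apart.

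The first question was how the 9 genes differed between media in each line. In both lines Stat3 and Bcl3 were higher in 2i and Socs3 and Pim3 were lower, whereas the ligand, the receptor chains, Jak1 and Pim1 each passed the test in 1 line only. The call threshold was an adjusted p under 0.05 in edgeR's quasi-likelihood test, adjusted over every gene tested. In J1, 6 of the 9 genes were called between media, beside 66.1% of all genes tested, with 3 higher in 2i (33.2% of all genes) and 3 lower (32.9%). In 3B3-3l, 7 were called, beside 65.4% of all genes, with 4 higher (32.7%) and 3 lower (32.7%). The libraries of the media did not overlap for 6 of the 9 genes in J1, beside 68.7% of all genes, and for 9 of the 9 in 3B3-3l, beside 69.6%. Called in both lines in the same direction were 4 of the 9, beside 47.4% of all genes, and none was called in opposite directions, as were 3.47% of all genes. The counts of called genes were thus near those of the transcriptome as a whole. The median log2 fold change over the 9 genes was -0.08 in J1 and 0.17 in 3B3-3l, and over all genes it was 0.01 in each line. The median absolute log2 fold change was 0.44 for the 9 genes and 0.44 for all genes in J1, and 0.36 and 0.43 in 3B3-3l. Only Pim3 in J1 and Socs3 in 3B3-3l differed by 2-fold or more, so most of these differences were small in comparison with those of some other genes of the pathway.

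**Figure D1:**
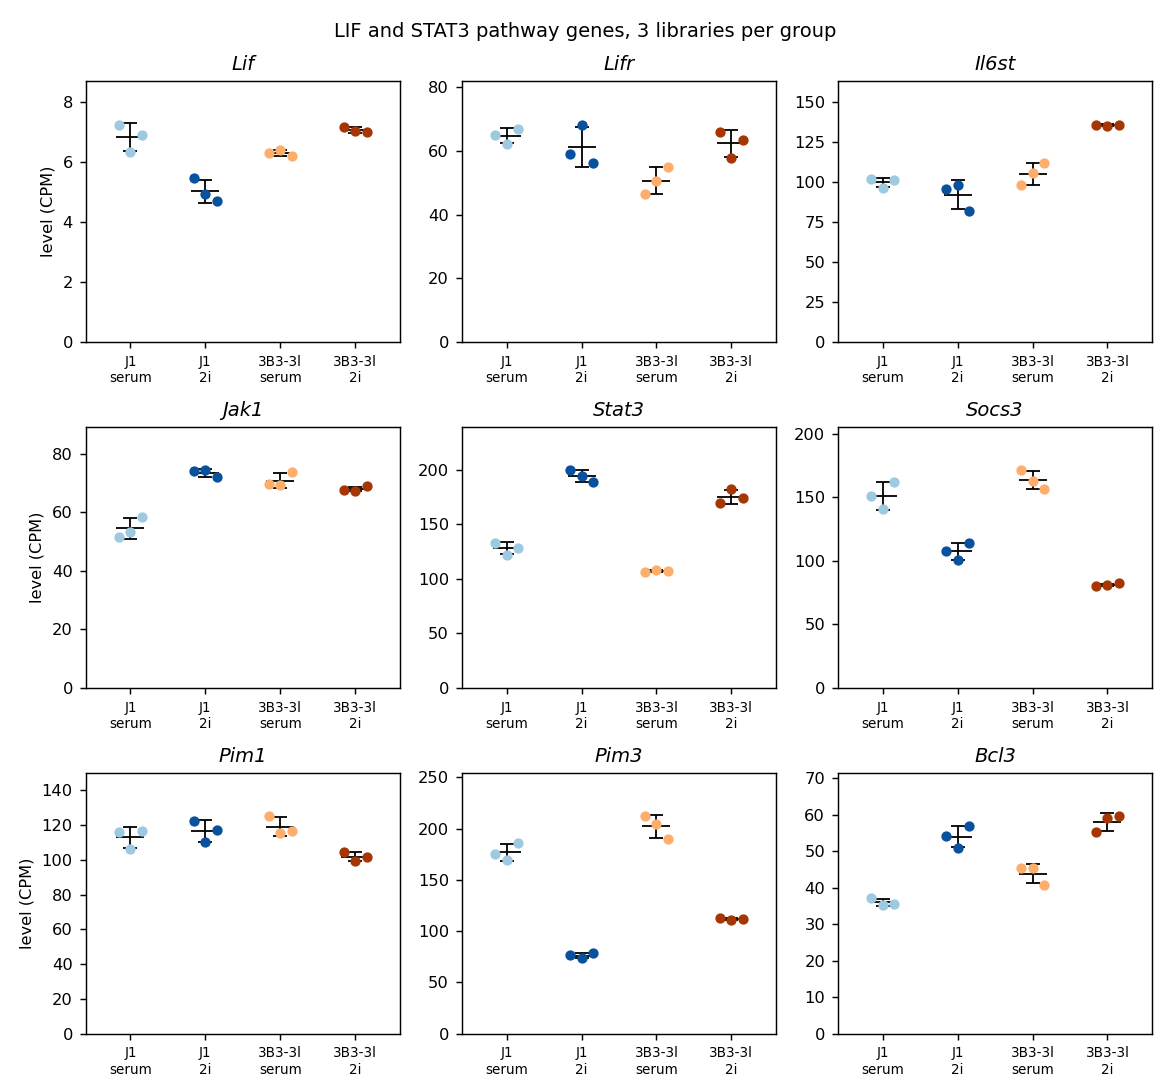
Levels of the 9 genes in CPM (vertical axes, each starting at 0) in the 4 groups of libraries. Points are single libraries and black bars are the mean ± SD of the 3 libraries. Stat3 and Bcl3 sit higher in 2i than in serum in both lines, and Socs3 and Pim3 sit lower.

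Lif, the ligand gene (chromosome 11, 4257568 to 4272514), was weakly expressed in all groups, and its reads measure RNA and not the LIF protein in the medium. Whether feeder cells left in the J1 serum cultures added to these reads was not tested. Lif stood at 7.24, 6.34 and 6.88 CPM in J1 serum and at 5.45, 4.91 and 4.68 CPM in J1 2i. It stood at 6.29, 6.38 and 6.21 CPM in 3B3-3l serum and at 7.16, 7.02 and 6.99 CPM in 3B3-3l 2i. The J1 2i libraries were the lowest of all 12, and those of J1 serum spanned a range that met both 3B3-3l groups. Lif fell in 2i in J1, by 0.44 ± 0.08 on the log2 scale (SE, edgeR adjusted p = 0.000222). In 3B3-3l the log2 fold change was 0.17 ± 0.08 and was not called (edgeR adjusted p = 0.0888), although the libraries of the media did not overlap. The 2i effects of the lines differed by 0.61 ± 0.12 (3B3-3l minus J1, edgeR adjusted p = 0.000908). In serum, where J1 alone was grown on feeder cells, Lif did not pass the test between lines (-0.12 ± 0.08, 95% interval -0.28 to 0.05, edgeR adjusted p = 0.288). In 2i it was 1.41-fold higher in 3B3-3l (0.49 ± 0.08, edgeR adjusted p = 0.00016).

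Lifr (chromosome 15, 7090610 to 7197489), the gene of the ligand-binding chain, stood at 65.1, 62.3 and 67.0 CPM in J1 serum and at 59.1, 68.3 and 56.1 CPM in J1 2i, which overlapped. In 3B3-3l it stood at 46.4, 50.6 and 55.0 CPM in serum and at 65.9, 57.8 and 63.5 CPM in 2i, and the media did not overlap. The 3B3-3l serum group was thus the one that stood apart, below the other groups. Lifr rose in 2i in 3B3-3l by 0.30 ± 0.08 (edgeR adjusted p = 0.00294), and its log2 fold change in J1 was -0.08 ± 0.08 (edgeR adjusted p = 0.36). Between lines in serum it was 1.28-fold lower in 3B3-3l (-0.35 ± 0.08, edgeR adjusted p = 0.00199), whereas the 2i groups differed by 0.03 ± 0.08 with a 95% interval of -0.12 to 0.18 (edgeR adjusted p = 0.798). The difference between the 2i effects was 0.38 ± 0.11 (edgeR adjusted p = 0.013).

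Il6st (chromosome 13, 112464070 to 112506860), the gene of gp130, differed from Lifr in the group that stood apart. It stood at 102, 96.4 and 101 CPM in J1 serum and at 96.0, 98.6 and 82.0 CPM in J1 2i. The 3B3-3l libraries held 98.3, 106 and 112 CPM in serum and at 136, 135 and 136 CPM in 2i. The 3B3-3l 2i libraries were above all others, and the other 3 groups ran into each other. Il6st rose 1.29-fold in 2i in 3B3-3l (0.36 ± 0.06, edgeR adjusted p = 0.000113) and did not pass the test in J1 (-0.12 ± 0.06, edgeR adjusted p = 0.129). In 2i it was 1.47-fold higher in 3B3-3l than in J1 (0.56 ± 0.06, edgeR adjusted p = 4.21e-06), and the serum groups gave 0.08 ± 0.06 (edgeR adjusted p = 0.371). The difference between the 2i effects was 0.48 ± 0.09 (edgeR adjusted p = 0.000817). Without J1 2i replicate 2, the lower level in J1 2i was called (-0.16, edgeR adjusted p = 0.0442), and without J1 2i replicate 3 it shrank to -0.037 (edgeR adjusted p = 0.565).

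Jak1 (chromosome 4, 101151974 to 101265282), the gene of the main kinase bound to gp130, was the only one of the upstream genes that was higher in 2i in J1. It stood at 51.6, 53.4 and 58.6 CPM in J1 serum and at 74.1, 74.4 and 72.0 CPM in J1 2i. The other line had 69.6, 69.4 and 73.7 CPM in serum and at 67.8, 67.5 and 68.9 CPM in 2i. J1 serum was therefore low, and the other groups lay within a narrow range. Jak1 rose 1.35-fold in J1 (0.43 ± 0.05, edgeR adjusted p = 2.05e-06), and in 3B3-3l the log2 fold change was -0.06 ± 0.05 (edgeR adjusted p = 0.333). In serum it was 1.3-fold higher in 3B3-3l than in J1 (0.38 ± 0.05, edgeR adjusted p = 3.43e-05). In 2i the contrast of lines gave -0.11 ± 0.05, which missed the threshold (edgeR adjusted p = 0.0912) and passed it when any 1 of the J1 serum libraries was left out (edgeR adjusted p = 0.0283 to 0.0482) or with at least 10 counts asked of every library (edgeR adjusted p = 0.0333). The 2i effects differed by -0.49 ± 0.07 (edgeR adjusted p = 0.000105).

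Stat3 (chromosome 11, 100886806 to 100939594), the transcription factor of the pathway, was higher in 2i in both lines. It stood at 133, 122 and 129 CPM in J1 serum and at 199.6, 195 and 189 CPM in J1 2i. The 3B3-3l libraries held 106, 108 and 107 CPM in serum and at 169.5, 182 and 174 CPM in 2i. All 6 libraries of 2i lay above all 6 of serum, and within each medium J1 lay above 3B3-3l. Stat3 rose 1.52-fold in J1 (0.60 ± 0.05, edgeR adjusted p = 1.08e-08) and 1.63-fold in 3B3-3l (0.71 ± 0.05, edgeR adjusted p = 1.35e-09). The difference between these effects was 0.11 ± 0.07 and was not called (95% interval -0.02 to 0.24, edgeR adjusted p = 0.222). Between lines, Stat3 was 1.19-fold lower in 3B3-3l in serum (-0.26 ± 0.05, edgeR adjusted p = 0.000438) and 1.11-fold lower in 2i (-0.15 ± 0.05, edgeR adjusted p = 0.0142). That last call did not hold with transcript length offsets (-0.10, edgeR adjusted p = 0.147) and without J1 2i replicate 1, 3B3-3l 2i replicate 1 or 3B3-3l 2i replicate 3 (edgeR adjusted p = 0.0515 to 0.0736). Of 10135 genes with at least 10 CPM in a group, those whose log2 CPM over the 12 libraries was most like that of Stat3 were Fanca (Pearson r = 0.992), Bid (r = 0.991) and Etv6 (r = 0.991). The libraries share a medium and a line, so these values describe a pattern over 4 groups. The mean level of Fanca was 84.3 CPM in J1 serum, 161 in J1 2i, 60.1 in 3B3-3l serum and 138 in 3B3-3l 2i.

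Socs3 (chromosome 11, 117966079 to 117970336), the feedback inhibitor with the motif shown above, moved in the opposite direction to Stat3. It stood at 151, 140.4 and 162 CPM in J1 serum and at 107, 101 and 114 CPM in J1 2i. In 3B3-3l it stood at 171, 163 and 157 CPM in serum and at 80.2, 80.6 and 82.2 CPM in 2i. The serum groups of the lines overlapped, and in 2i all 3B3-3l libraries lay below those of J1. Socs3 was 1.40-fold lower in 2i in J1 (-0.49 ± 0.06, edgeR adjusted p = 2.12e-06) and 2.02-fold lower in 3B3-3l (-1.01 ± 0.06, edgeR adjusted p = 3.65e-10). The fall was larger in 3B3-3l, with a difference of -0.52 ± 0.08 between the 2i effects (edgeR adjusted p = 0.000196). In 2i Socs3 was 1.33-fold lower in 3B3-3l than in J1 (-0.41 ± 0.06, edgeR adjusted p = 4.23e-05). The contrast of lines in serum gave 0.12 ± 0.06, which missed the threshold (edgeR adjusted p = 0.134) except without J1 serum replicate 3 (0.17, edgeR adjusted p = 0.0478). The genes most like Socs3 over the 12 libraries were Ier3 (r = 0.992), Ehmt2 (r = 0.991) and Radil (r = 0.991). Ier3, an immediate early response gene, stood at a mean of 17.7 CPM in J1 serum, 6.13 in J1 2i, 20.6 in 3B3-3l serum and 2.51 in 3B3-3l 2i.

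Pim1 (chromosome 17, 29490785 to 29496111) and Pim3 (chromosome 15, 88862194 to 88865726) code for related kinases and differed in their response. Pim1 stood at 116, 106 and 117 CPM in J1 serum, 122, 110.1 and 117 in J1 2i, 125, 115 and 117 in 3B3-3l serum, and 104, 99.5 and 102 in 3B3-3l 2i. The 3B3-3l 2i libraries lay below all others and the other 3 groups overlapped. Pim1 did not pass the test in J1 (0.05 ± 0.05, 95% interval -0.06 to 0.15, edgeR adjusted p = 0.461) and fell by 0.23 ± 0.05 in 3B3-3l (edgeR adjusted p = 0.00172). Between lines it was 1.15-fold lower in 3B3-3l in 2i (-0.20 ± 0.05, edgeR adjusted p = 0.0076) and differed by 0.08 ± 0.05 in serum (edgeR adjusted p = 0.285). The difference between the 2i effects was -0.27 ± 0.08 (edgeR adjusted p = 0.012).

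Pim3 stood at 175, 169 and 186 CPM in J1 serum and at 76.4, 73.6 and 78.7 CPM in J1 2i. The other line had 212, 205 and 190.2 CPM in serum and at 113, 111 and 112 CPM in 2i. None of the 4 groups overlapped, and 3B3-3l lay above J1 in each medium. Pim3 was 2.32-fold lower in 2i in J1 (-1.21 ± 0.05, edgeR adjusted p = 9.19e-12), the largest change between media among the 9 genes, and 1.80-fold lower in 3B3-3l (-0.85 ± 0.05, edgeR adjusted p = 4.88e-10). The fall was larger in J1, by 0.36 ± 0.07 (3B3-3l minus J1, edgeR adjusted p = 0.00121), whereas that of Socs3 was larger in 3B3-3l. Pim3 was 1.47-fold higher in 3B3-3l than in J1 in 2i (0.56 ± 0.05, edgeR adjusted p = 4.21e-07) and 1.14-fold higher in serum (0.19 ± 0.05, edgeR adjusted p = 0.00658).

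Bcl3 (chromosome 7, 19808462 to 19822824), the gene of the IκB-like cofactor, stood at 37.1, 35.4 and 35.6 CPM in J1 serum and at 54.1, 51.0 and 56.8 CPM in J1 2i. In 3B3-3l it stood at 45.5, 45.5 and 40.8 CPM in serum and at 55.3, 59.2 and 59.6 CPM in 2i. The 2i libraries of both lines lay above all serum libraries, and the serum groups of the lines did not overlap. Bcl3 rose 1.5-fold in J1 (0.58 ± 0.06, edgeR adjusted p = 2.82e-07) and 1.32-fold in 3B3-3l (0.40 ± 0.06, edgeR adjusted p = 1.53e-05). The difference between the 2i effects was -0.18 ± 0.08 and missed the threshold (edgeR adjusted p = 0.105), which it passed with at least 10 counts asked of every library (edgeR adjusted p = 0.045) and without 3B3-3l serum replicate 3 (edgeR adjusted p = 0.0404). In serum Bcl3 was 1.22-fold higher in 3B3-3l than in J1 (0.29 ± 0.06, edgeR adjusted p = 0.00134), and in 2i the lines differed by 0.10 ± 0.06 (edgeR adjusted p = 0.155).

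**Figure D2:**
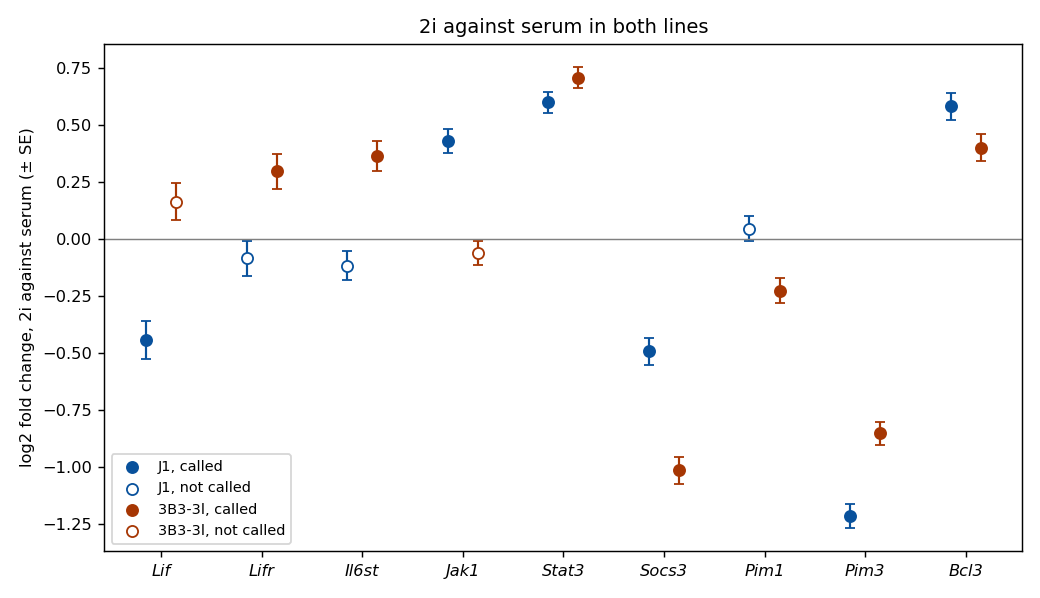
Log2 fold change of each gene in 2i against serum (vertical axis, ± SE) in J1 and 3B3-3l. Filled points passed an edgeR adjusted p under 0.05. Stat3 and Bcl3 are above 0 and Socs3 and Pim3 below 0 in both lines, while Lif, Lifr, Il6st, Jak1 and Pim1 are filled in 1 line only.

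The second question was how the 9 genes differed between the lines in 1 medium. In serum 5 of the 9 were called, beside 38.7% of all genes, with Jak1, Pim3 and Bcl3 higher in 3B3-3l (21.5% of all genes were) and Lifr and Stat3 lower (17.2%). In 2i 6 were called, beside 45.9% of all genes, with Lif, Il6st and Pim3 higher in 3B3-3l (23.0% of all genes were) and Stat3, Socs3 and Pim1 lower (22.9%). The libraries of the lines did not overlap for 5 of the 9 genes in serum, beside 50.9% of all genes, and for 7 in 2i, beside 52.6%. Stat3 and Pim3 were called in both media, Stat3 lower and Pim3 higher in 3B3-3l each time. The 2i effect differed between lines for 7 of the 9, beside 34.7% of all genes, with 4 more positive in 3B3-3l (16.3% of all genes) and 3 more negative (18.3%). Of these 7, Lif, Lifr, Il6st and Pim3 had the more positive effect in 3B3-3l and Jak1, Socs3 and Pim1 the more negative one. The median absolute difference was 0.38 for the 9 genes and 0.30 for all genes. These counts are of genes chosen with earlier results known, and the comparisons use the same 12 libraries and are not independent of each other.

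Levels of different genes were compared per length, as CPM per kb of effective transcript length. On this scale Pim3 had the highest mean level in both serum groups and Pim1 in both 2i groups, and Lif had the lowest in all 4 groups. In J1 serum, Pim3 stood at 78.5 ± 3.84 CPM per kb (SD, n = 3), Socs3 at 68.0 ± 4.09, Pim1 at 62.5 ± 3.41 and Stat3 at 39.6 ± 1.08. Bcl3 stood at 24.3 ± 1.40, Il6st at 19.8 ± 0.607, Jak1 at 12.0 ± 0.890, Lifr at 10.1 ± 0.488 and Lif at 2.40 ± 0.261. In J1 2i the leading genes were Pim1 at 64.9 ± 3.17, Stat3 at 58.0 ± 5.18 and Socs3 at 49.2 ± 2.20, and Pim3 stood at 34 ± 1.03, below Bcl3 at 36.3 ± 1.77. In 3B3-3l serum Pim3 (90.2 ± 4.62), Socs3 (72.3 ± 3.54) and Pim1 (66.2 ± 2.63) led as in J1 serum. In 3B3-3l 2i Pim1 (56.3 ± 1.43), Stat3 (53.7 ± 0.316) and Pim3 (49.7 ± 0.503) led, and Socs3 stood at 36.0 ± 0.637, near Bcl3 at 37.0 ± 1.65. In both lines Stat3 was thus below Socs3 in serum and above it in 2i. Lifr was below Il6st in every group. The matched transcript of Il6st held only 59.0% to 66.7% of the reads of its gene, so its level per kb rests on an incomplete set of transcripts.

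The kinase families were then described as a whole on the same scale. The summed level of the 3 PIM genes was 181 ± 6.15 CPM per kb in J1 serum and 106 ± 4.06 in J1 2i, and 235 ± 7.29 in 3B3-3l serum and 115 ± 1.5 in 3B3-3l 2i. Pim1 made up 34.6% of this sum in J1 serum and 60.9% in J1 2i, and 28.2% and 49.0% in 3B3-3l. Pim2 made up 21.9% and 7.14% in J1 and 33.3% and 7.65% in 3B3-3l. The kinase most represented in the PIM family was therefore Pim3 in the serum groups and Pim1 in the 2i groups. The JAK family went the other way, with sums of 34.6 ± 1.7 CPM per kb in J1 serum, 65.4 ± 1.8 in J1 2i, 39.0 ± 0.64 in 3B3-3l serum and 74.5 ± 1.47 in 3B3-3l 2i. Jak1 made up 34.6% of it in J1 serum, 24.4% in J1 2i, 39.4% in 3B3-3l serum and 19.9% in 3B3-3l 2i, while Jak3 made up 32.0%, 49.5%, 33.1% and 65.1%. Stat3 was the leading STAT gene in every group, at 46.2%, 49.7%, 41.2% and 51.2% of the summed level of the 7 STAT genes in the same order of groups. Socs3 likewise led the SOCS family, at 48.4%, 43.3%, 52.0% and 37.1%.

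**Figure D3:**
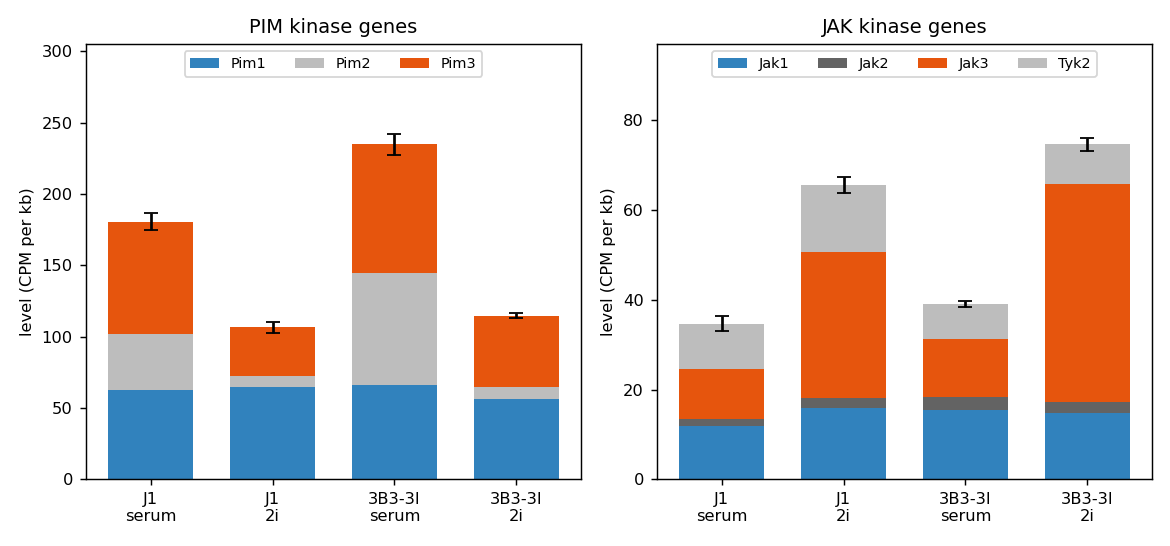
Summed level of the PIM genes (left) and JAK genes (right) in CPM per kb, as the mean of 3 libraries, with bars divided by gene and error bars for the SD of the sum. The PIM sum is 181 and 235 in the serum groups against 106 and 115 in 2i, and the larger JAK sum in 2i lies mostly in Jak3.

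A list of 52 further genes of gp130, JAK and STAT signalling, ordered by role, was examined next, of which 50 passed the filter on low counts. The exceptions were Il6, at no more than 0.135 CPM in any library, and Il27, with no reads in any library. In J1, 38 of the 50 were called between media (16 higher in 2i and 22 lower), beside 66.1% of all genes (33.2% higher and 32.9% lower), and in 3B3-3l 39 (16 higher and 23 lower), beside 65.4% (32.7% in each direction). Called in both lines were 31 in the same direction, beside 47.4% of all genes, and 4 in opposite directions, beside 3.47%. The median absolute log2 fold change was 0.56 in J1 and 0.52 in 3B3-3l, beside 0.44 and 0.43 for all genes. Between lines, 26 were called in serum (15 higher in 3B3-3l), beside 38.7% of all genes, and 29 in 2i (17 higher), beside 45.9%. The 2i effect differed for 23, beside 34.7%. The counts by role below can be read against the same shares.

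Among cytokines and receptors of the gp130 family, 8 of 11 genes tested were called in J1 (3 higher in 2i and 5 lower), beside 66.1% of all genes. In 3B3-3l 9 of these 11 were called (3 higher and 6 lower), beside 65.4% of all genes. Il6ra, the gene of the interleukin-6 receptor, had the largest rise. It stood at 1.31, 0.771 and 0.948 CPM in J1 serum and 11.9, 10.5 and 11 in J1 2i, and at 1.25, 1.27 and 1.26 CPM in 3B3-3l serum and 24.6, 23.0 and 25.2 in 3B3-3l 2i. Its log2 fold changes were 3.45 ± 0.13 (edgeR adjusted p = 1.28e-12) and 4.26 ± 0.12 (edgeR adjusted p = 4.12e-14). Osm, the gene of oncostatin M, stood at 1.17, 1.52 and 1.27 CPM in J1 serum and 7.59, 6.84 and 7.24 in J1 2i, and at 1.78, 1.62 and 1.98 CPM in 3B3-3l serum and 17.6, 20.7 and 19.6 in 3B3-3l 2i. In 2i Osm was higher in 3B3-3l than in J1 by 1.42 ± 0.09 (edgeR adjusted p = 4.85e-09). Cntfr, the receptor gene for ciliary neurotrophic factor, fell in J1 from 6.77 ± 0.374 to 1.12 ± 0.221 CPM (-2.59 ± 0.16, edgeR adjusted p = 6.80e-10). Clcf1, a cytokine gene, fell more in 3B3-3l than in J1 (difference of -2.17 ± 0.30, edgeR adjusted p = 5.51e-05). In J1 it had 1.13 ± 0.148 CPM in serum and 0.613 ± 0.0973 in 2i, against 2.97 ± 0.418 and 0.358 ± 0.071 in 3B3-3l, where the log2 fold change was -3.05 ± 0.21 (edgeR adjusted p = 1.90e-09).

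Of the other JAK and STAT genes, 8 of 9 were called in J1 (7 higher in 2i and 1 lower), beside 66.1% of all genes, and 7 in 3B3-3l (5 and 2), beside 65.4%. Jak3, a kinase gene best known from lymphocytes, stood at 41.6, 38.2 and 43.2 CPM in J1 serum and at 118, 123 and 119 in J1 2i. The 3B3-3l libraries held 47.8, 48.0 and 47.4 CPM in serum and at 174, 185 and 180.3 in 2i, a rise of 1.91 ± 0.05 (edgeR adjusted p = 3.26e-14), and in 2i it was higher than in J1 by 0.58 ± 0.05 (edgeR adjusted p = 1.37e-07). Stat5a rose in J1 from 5.46 ± 0.384 to 18.8 ± 0.782 CPM (1.78 ± 0.08, edgeR adjusted p = 1.21e-11). Its reads may be shared with its close paralogue Stat5b, so the split between them is uncertain. Stat4 was the one gene of this group that fell in J1 (-1.09 ± 0.07, edgeR adjusted p = 2.26e-09), and it also fell in 3B3-3l (-0.36 ± 0.07, edgeR adjusted p = 0.000356). Jak2 was called in opposite directions in the lines, at 7.61 ± 0.879 and 10.6 ± 1.05 CPM in J1 serum and 2i and at 14.2 ± 1.45 and 11.3 ± 0.822 CPM in 3B3-3l. Tyk2 had a lower level in 3B3-3l whatever the medium, with log2 differences from J1 of -0.36 ± 0.06 for serum (edgeR adjusted p = 0.000241) and -0.75 ± 0.06 for 2i (edgeR adjusted p = 7.63e-08).

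Of the negative regulators, 8 of 14 were called in J1 (3 higher in 2i and 5 lower) and 8 in 3B3-3l (2 and 6), both smaller shares than the 66.1% and 65.4% of all genes. Cish, the SOCS family gene with the pair of motifs shown above, fell most. Its J1 libraries stood at 5.49, 6.44 and 6.18 CPM in serum and 1.12, 1.22 and 1.32 in 2i, and its 3B3-3l libraries at 5.98, 7.05 and 7.06 CPM in serum and 1.76, 1.48 and 1.7 in 2i. The log2 fold changes were -2.31 ± 0.12 (edgeR adjusted p = 1.40e-10) and -2.02 ± 0.12 (edgeR adjusted p = 3.42e-10). Cish and Socs3 thus both fell in both lines. Ptpn6, the gene of the phosphatase SHP1, had the largest rise in J1 (0.52 ± 0.06, edgeR adjusted p = 1.62e-06), and Pias2 in 3B3-3l (0.56 ± 0.05, edgeR adjusted p = 9.45e-08). Between lines in serum, Socs7 was highest in 3B3-3l relative to J1 (0.50 ± 0.06, edgeR adjusted p = 1.03e-05) and Socs2 lowest (-0.25 ± 0.05, edgeR adjusted p = 0.00149). In this group 2 of 14 genes had a 2i effect that differed between lines, Ptpn1 and Pias2, and that of Ptpn1 was lost with transcript length offsets (edgeR adjusted p = 0.129).

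In the branch of SHP2, which links gp130 to the MAP kinase cascade, 4 of 5 genes were called in each line (1 higher in 2i and 3 lower in each). The share of all genes called was 66.1% in J1 and 65.4% in 3B3-3l. Gab2, an adaptor gene at a low level, had 1.16 ± 0.125 CPM in J1 serum, 0.772 ± 0.0777 in J1 2i, 2.0 ± 0.124 in 3B3-3l serum and 0.466 ± 0.1 in 3B3-3l 2i, with log2 fold changes of -0.59 ± 0.19 (edgeR adjusted p = 0.0114) and -2.08 ± 0.19 (edgeR adjusted p = 7.99e-08). Gab1, a related adaptor gene and the holder of the third motif shown above, stood at 432 ± 9.09 CPM in J1 serum and 365 ± 14.7 in J1 2i, and was higher in 3B3-3l than in J1 in 2i by 0.34 ± 0.04 (edgeR adjusted p = 1.47e-05). Grb2, the gene of an adaptor of receptor signalling, was lower in 3B3-3l than in J1 in serum by 0.47 ± 0.05 (edgeR adjusted p = 1.34e-06). Shc1, another adaptor gene, was called in opposite directions, higher in 2i in J1 (0.29 ± 0.05, edgeR adjusted p = 5.79e-05) and lower in 3B3-3l (-0.16 ± 0.05, edgeR adjusted p = 0.008).

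Of 11 further genes known as targets of STAT3, 10 were called in J1, beside 66.1% of all genes, and 11 in 3B3-3l, beside 65.4%. In J1, 2 rose and 8 fell (33.2% and 32.9% of all genes), and in 3B3-3l 5 rose and 6 fell (32.7% in each direction). The 2 that rose in J1 also rose in 3B3-3l, and both code for transcription factors of naive pluripotency. They were Tfcp2l1, at a mean of 216 and 1064 CPM in J1 serum and 2i and 226 and 1223 CPM in 3B3-3l, and Klf4, at 98.6 ± 3.64 and 279.9 ± 3.04 CPM in J1 and 80.8 ± 2.13 and 236 ± 4 CPM in 3B3-3l. Klf4 was named after its values were seen. The log2 fold change of Tfcp2l1 was 2.30 ± 0.07 in J1 (edgeR adjusted p = 1.66e-13). Called lower in both lines were 6 target genes. Apart from Pim2, they were Myc, at a mean of 45.7 and 14.6 CPM in J1 serum and 2i and 32.9 and 20.4 CPM in 3B3-3l, and Junb, Mcl1, Cebpb and Cebpd. The fall of Myc was larger in J1 (difference of 0.96 ± 0.15, 3B3-3l minus J1, edgeR adjusted p = 0.000141). In J1 serum and 2i, Junb stood at 41.0 and 11.2 CPM, Mcl1 at 379 and 203, Cebpb at 4.71 and 2.15 and Cebpd at 2.22 and 0.481. Pim2, the third PIM kinase gene, had the largest fall. Its J1 libraries stood at 75.9, 74.0 and 68.8 CPM in serum and 13.1, 12.9 and 15.0 in 2i, and its 3B3-3l libraries at 146, 145 and 141 CPM in serum and 15.2, 16.1 and 15.7 in 2i. The log2 fold changes were -2.42 ± 0.06 (edgeR adjusted p = 2.93e-14) and -3.20 ± 0.06 (edgeR adjusted p = 1.44e-15), and in serum Pim2 was higher in 3B3-3l than in J1 by 0.98 ± 0.06 (edgeR adjusted p = 6.23e-09). Pramel7, of a multigene family whose copies may share reads, was at a low level throughout, at 0.525, 0.795 and 0.488 CPM in J1 serum, 0.228, 0.252 and 0.0244 in J1 2i, 0.235, 0.143 and 0.386 in 3B3-3l serum and 1.71, 1.62 and 1.52 in 3B3-3l 2i. It was called in opposite directions, lower in 2i in J1 (-1.81 ± 0.43, edgeR adjusted p = 0.00201) and higher in 3B3-3l (2.66 ± 0.37, edgeR adjusted p = 9.83e-06). Gbx2, a homeobox gene, was also called in opposite directions, at 22.1 ± 0.889 and 19.8 ± 0.915 CPM in J1 serum and 2i and 11.8 ± 1.07 and 16.7 ± 0.384 CPM in 3B3-3l. Its call in J1 (-0.16 ± 0.07, edgeR adjusted p = 0.0444) was lost without either J1 serum replicate 1 or 2 (edgeR adjusted p = 0.087 and 0.141), without J1 2i replicate 2 or 3 (0.155 and 0.0569), without 3B3-3l serum replicate 2 (0.0512) and without any 1 of the 3B3-3l 2i libraries (0.0534 to 0.057). The media differ in the inhibitors and in serum as well as in the labelled dose of LIF, so the part of the LIF signal in these comparisons cannot be told apart from that of the rest of the medium.

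**Figure D4:**
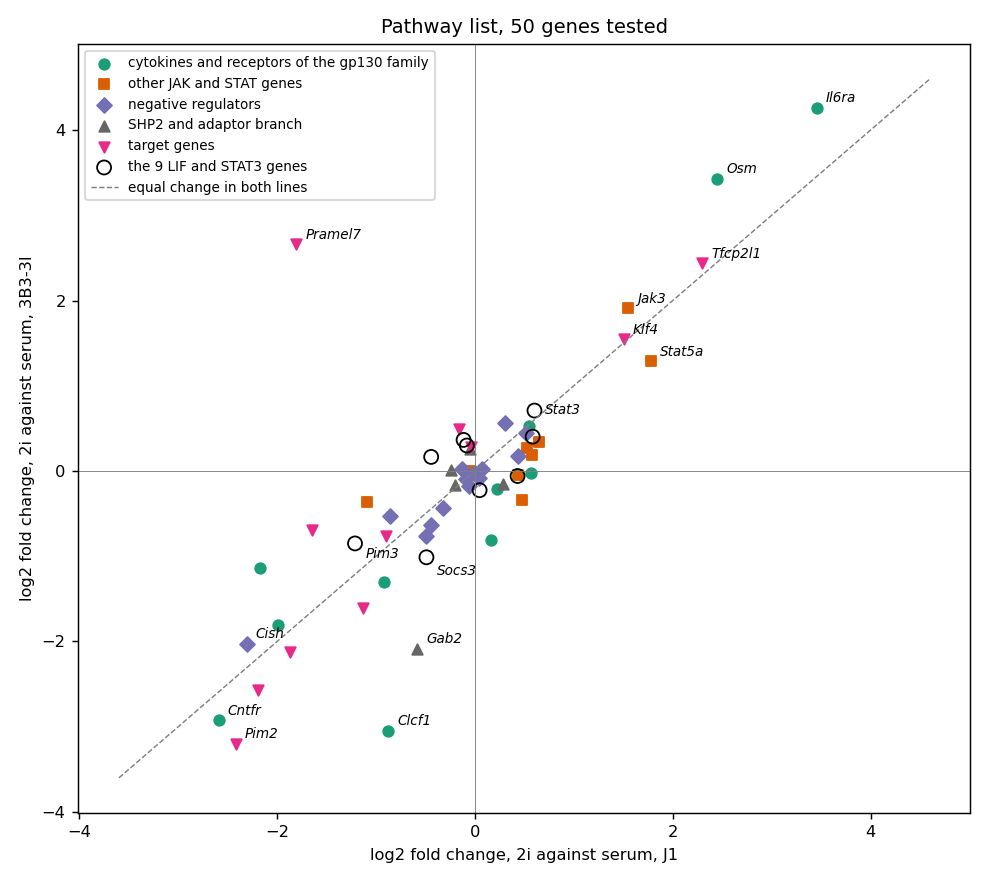
Log2 fold change in 2i against serum for the 50 tested genes of the pathway list in J1 (horizontal axis) and 3B3-3l (vertical axis), marked by role, with the 9 LIF and STAT3 genes as open circles and the line of equal change dashed. Il6ra and Osm lie farthest up in both lines, Pim2 and Cntfr lie far down in both, and Pramel7 lies in opposite directions.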

How the data were processed

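The authors made stranded poly(A) libraries and, after sequencing, estimated transcript abundance by Sailfish 0.9.2, with the strand set, on mm10 models. RefSeq models are named in their methods, but the tables carry Ensembl identifiers. They deposited a table of estimated counts per gene, summarised with tximport, and, for each library, the TPM and estimated count of every transcript. The labels do not say which of the sequencing pools held which library, so the pool was not assessed.

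Estimated counts were rounded and tested with the quasi-likelihood test of edgeR 4.0.16 (R 4.3.3) in 1 fit to all 12 libraries with 4 groups, after filterByExpr and TMM scaling (factors 0.97 to 1.04). The biological coefficient of variation was 6.49%. All single gene adjusted p-values are Benjamini-Hochberg values over the 17885 genes tested in a contrast. Standard errors are the log2 fold change divided by the square root of the test statistic, and 95% intervals follow from them. There were 5 contrasts. CPM values are per library with TMM library sizes, and levels per kb use the effective lengths of the transcript tables weighted by reads. The test was checked on simulated counts. Names were matched to 85.6% of gene rows. Coordinates and promoter sequences are from RefSeq for GRCm38.p6.

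The genes and lists were chosen with earlier results of these data known. From the pathway list the text names, in each role and contrast, the called genes with the highest and lowest log2 fold change among those with at least 1 CPM in the highest group, and for Stat3 and Socs3 the 3 genes most like each in log2 CPM. Klf4, Myc, Junb, Mcl1, Cebpb and Cebpd are named outside this rule, as target genes called in the same direction in both lines. Of the genes this rule names, 1 is counted in the list but not reported here. Alternatives were DESeq2 1.42.0 size factors, the DESeq2 Wald test, other filters on low counts, a replicate block, a fit to only the 6 libraries of a contrast, transcript length offsets, a 2-fold threshold, annotated lengths, shares by reads and leaving out each library. Replicates of a group differed by more than sampling noise in all groups. Reads carried no molecular identifiers, so floors cover counting error only.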

Additional observations from a re-analysis of the deposited data

Results flagged for a closer look

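The 2i effect differed between lines, by a test of the difference itself, for 7 of the 9 genes. It also differed for 17 of the reported genes that the rule named from the pathway list. Differences are 3B3-3l minus J1 on the log2 scale, and adjusted p-values are from edgeR. Among the 9 genes, Lif differed by 0.61, Lifr by 0.38, Il6st by 0.48, Jak1 by -0.49, Socs3 by -0.52, Pim1 by -0.27 and Pim3 by 0.36, with adjusted p-values of 0.000105 to 0.013. For Lif, Lifr, Il6st, Jak1 and Pim1 the effects in the lines had opposite signs, but none of these genes passed the test in both lines. Among cytokine and receptor genes, Clcf1 differed by -2.17, Osm by 0.98 and Il6ra by 0.81 (0.54 without J1 serum replicate 1, where the adjusted p was 0.054). Among the other JAK and STAT genes, Jak2 differed by -0.82, Tyk2 by -0.39, Stat5a by -0.50, Jak3 by 0.36 and Stat4 by 0.72. Pias2 (0.26) and Ptpn1 (0.34, lost with transcript length offsets) were the negative regulators, Grb2 (0.31, likewise lost), Gab1 (0.25), Shc1 (-0.44) and Gab2 (-1.50) belonged to the branch of SHP2, and Pramel7 (4.47), Gbx2 (0.66) and Pim2 (-0.78) were target genes. Pramel7 showed the largest difference of these, at a level of 1.71 CPM or less in every library. The target gene Myc, which the rule did not name, also differed, by 0.96. Of all genes tested, 34.7% had a 2i effect that differed between lines.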

How the results depend on the processing

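All counts of called genes were within 1.5 times the reported ones except with a fold of at least 2. The number of the 9 genes called was then 1 in J1 and 1 in 3B3-3l between media, and 0 in serum, 0 in 2i between lines and 0 for the difference between lines, where no fold minimum gave 6, 7, 5, 6 and 7. The pathway list gave 17, 18, 2, 3 and 4 in the same order, and all genes 4143, 4190, 820, 1447 and 1470. For the 9 genes taken singly, DESeq2 size factors, the DESeq2 Wald test and no filter changed none of the 45 calls, and the fit to the 6 libraries compared changed none of 36. Leaving out 1 library at a time moved the counts of the 9 genes to 6 to 7, 7 to 7, 5 to 6, 5 to 7 and 7 to 8, and the only change of sign was that of Lifr between lines in 2i, which was not called (0.03, and -0.030 to 0.11 without 1 library). The values gave no sign that the replicate numbers pair the samples (correlations of same-numbered deviations -0.118 to 0.062, and 1 of 12 libraries closest to its own number). The labels do not say whether a number marks a shared batch or day, so pairing by culture stays unknown. With the replicate number as a block, 6, 7, 5, 6 and 7 of the 9 genes were called, and for all genes 11543, 11408, 6383, 7784 and 5623. Of the pathway list genes named by the rule, whose alternatives were added after seeing the data, the difference between lines lost its call with transcript length offsets for Ptpn1 (adjusted p = 0.129) and Grb2 (0.0593), and the block and the length offsets lost that of Gbx2 in J1 (0.0617 and 0.062). Between lines in 2i, the call of Clcf1 was lost with length offsets (0.0864) and that of Cish with the DESeq2 Wald test (0.053) and the fit to 6 libraries (0.0596). Depth limits most the genes near or below 1 CPM in a group, such as Clcf1, Gab2 and Pramel7.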

Other observations

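The split of reads among transcripts of the 9 genes was described as shares of the TPM of a gene, with no test. Stat3-001, the model with 2310 coding bases, held 65.4% ± 3.75 of Stat3 TPM in J1 serum, 68.6% ± 5.50 in J1 2i, 68.4% ± 0.256 in 3B3-3l serum and 66.7% ± 2.79 in 3B3-3l 2i (SD, n = 3), so that the higher Stat3 level in 2i came with a share that stayed within the spread of libraries. Socs3-001 held 91.0% to 94.7% of Socs3 TPM as group means, Bcl3-001 85.0% to 91.1% and Jak1-001 95.7% to 97.3%. Lifr had 3 models. Lifr-202, with the shortest coding stretch (2157 bases against 3276), held 14.4% ± 1.32 in J1 serum, 12.7% ± 1.74 in J1 2i, 9.54% ± 0.874 in 3B3-3l serum and 10.2% ± 2.57 in 3B3-3l 2i. The libraries of J1 serum, at 13.0% to 15.5%, did not overlap those of 3B3-3l serum, at 8.54% to 10.2%. Shares of Lifr-203 did not overlap between these groups either (46.0% to 51.3% and 54.2% to 61.8%), and those of Lifr-201 did. The 3 shares depend on each other, and how often transcript shares of other genes did not overlap was not computed. The share of 50.9% of all genes that did not overlap between these groups is for gene levels, a different measure. By reads in place of TPM the shares of Lifr-202 were 5.99% ± 0.698 in J1 serum and 3.61% ± 0.281 in 3B3-3l serum. Shares of Lif transcripts varied widely between libraries of a group, with Lif-001 at 16.3% to 59.4% in 3B3-3l 2i, so no split of Lif could be read at this depth.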
